A study of Homo sapiens with 8 samples.

Results

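The RNAs described here are 10 nuclear small RNAs, chosen by gene name: 7SK (RN7SK), the RNA subunits of RNase MRP (RMRP) and RNase P (RPPH1), and the spliceosomal snRNAs RNU1-1, RNU4-1, RNU5A-1, RNU6-1, RNU4ATAC, RNU11, and RNU12. Each name matched 1 entry among the 57756 genes of the deposited tables. RNA was sequenced from RPS6 immunoprecipitates (RIP) and from input lysate of 4 human cancer cell lines for which no treatment is named, with 1 RIP and 1 input library per line and 8 libraries in all. RPS6 is a protein of the small ribosomal subunit. The input is taken here to be an aliquot of the same lysate, which the study's methods do not state. The lines are Hep3B (hepatocellular carcinoma), HCT116 (colon cancer), DU145 (prostate cancer), and SW1990 (pancreatic cancer). No line has a second pair, so p-values measure the spread between these 4 pairs alone.

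7SK is transcribed by RNA polymerase III and holds the elongation factor P-TEFb in an inactive particle with LARP7, MEPCE, and HEXIM1. RNase P removes the 5′ leader of precursor tRNAs, and RNase MRP, which shares most of its proteins, cuts precursor rRNA in the nucleolus. U1, U4, U5, and U6 snRNAs are among those of the major spliceosome, while U11, U12, and U4atac act in the minor spliceosome, which removes a rare class of introns. All of these RNAs are known mainly for work in the nucleus, whereas ribosomes translate in the cytoplasm.

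The libraries held between 34630231 and 54209591 fragments on genes, so that a floor of 3 fragments lay between 0.0553 and 0.0866 CPM (fragments per 1000000 fragments on all genes of the library). The liver labels disagree, since the titles read 3B and the cell line field reads Huh7. The pair is called Hep3B here, the name used in the methods. All 6 liver markers examined (ALB, AFP, APOA1, SERPINA1, TTR, and FGB) reached 1 FPKM in both Hep3B libraries. FPKM are fragments scaled to both gene length and library depth. Of 6 intestine markers, only CDX2 reached 1 FPKM in the HCT116 libraries, with 6.25 FPKM in the input, whereas 4 did in the SW1990 libraries, with CDX2 at 86.6 FPKM in the input. KLK3 and KLK2, which mark prostate epithelium, were below 1 FPKM in the DU145 libraries. The intestine markers VIL1 and LGR5 were highest in the Hep3B input, at 151 and 18.4 FPKM. Of 6 pancreatic duct markers, 5 reached 1 FPKM in the SW1990 input, and 5 did in the HCT116 and DU145 inputs too. Among them MSLN and SOX9 were highest in the SW1990 input, KRT19 in the HCT116 input, and KRT7 and MUC1 in the DU145 input. These markers leave the identity of the pairs labelled HCT116 and SW1990 in doubt, which bears on every value given for either name, the RMRP ratio in SW1990 included. The names are used as labels. Values without a pair are given where they change the call of a member, and as counts for partner mRNAs and small Cajal body RNAs. In cultures sequenced in bulk, fewer cells with an RNA and less RNA per cell cannot be told apart.

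RN7SK, RPPH1, and RMRP took far larger shares of the input than of the RIP libraries. Together they took 8.59% of all Hep3B input fragments, 2.14% for HCT116, 1.45% for DU145, and 0.387% for SW1990. In the RIP libraries they took 0.117%, 0.0364%, 0.0556%, and 0.0483% in the same order. They carried nearly all of the members' fragments, since the 7 snRNAs together had between 99 and 942 fragments in an input and between 2 and 89 in a RIP library.

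**Figure D1:**
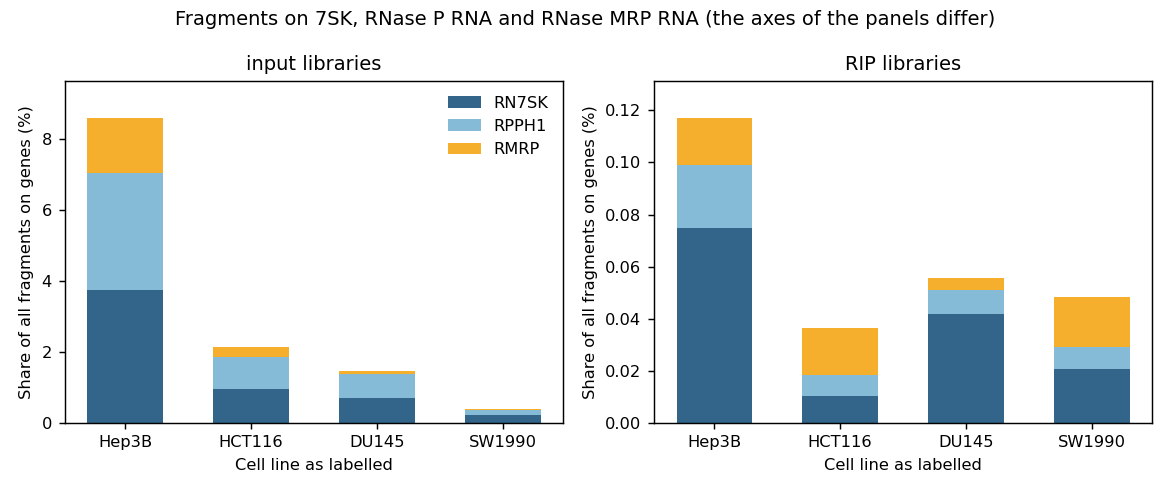
Share of all fragments on genes (%) that fell on RN7SK, RPPH1, and RMRP, stacked, in the 4 input libraries (left) and the 4 RIP libraries (right), with a separate axis for each panel. The stack reaches 8.59% in the Hep3B input and 0.117% in the Hep3B RIP library, and RMRP (top) is a thin layer in the SW1990 input but a thick one in the SW1990 RIP library.

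Of the 10 RNAs, 5 had a mean of at least 10 estimated counts over the 8 libraries and entered the test across all genes, and the other 5 were too weakly covered. All 5 tested members were lower in RIP (edgeR's quasi-likelihood test with the cell line as a block, Benjamini-Hochberg adjusted p under 0.05). None was higher in edgeR, where none had an unadjusted p under 0.05 in that direction, and none was higher in DESeq2. The background is large, since 51.5% of the 19910 genes tested passed the threshold, 24.9% as lower and 26.5% as higher. The members' median log2 fold change was -3.36, beside -0.05 for all genes tested. The members that passed the minimum are those with many input fragments, and their count is no sign of how the other 5 behave.

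RN7SK (ENSG00000202198) is listed on chromosome 6 from 52860417 to 52860748 of hg19, at a locus of its own. Its input level was 37339 CPM in Hep3B cells and 9523 CPM in HCT116 cells, and it was 7029 CPM for DU145 and 2142 CPM for SW1990. In the RIP libraries it was 749, 104, 418, and 205 CPM in the same order. The groups did not overlap, since the highest RIP value lay below the lowest input value. How many of all genes tested do the same was not counted, so this is no sign of a special trait. RIP over input was lowest in HCT116 cells at 0.0109, followed by Hep3B at 0.0201, DU145 at 0.0595, and SW1990 at 0.0959. The fitted log2 fold change was -4.56 (standard error, SE, 0.55, adjusted p = 7.7e-05 in edgeR). Per length, RN7SK ranked 1 of all genes in the Hep3B and SW1990 inputs, with 256001 and 13829 FPKM, and 3 in the other inputs. It still ranked 5, 59, 2, and 28 in the Hep3B, HCT116, DU145, and SW1990 RIP libraries.

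RPPH1 (ENSG00000259001), the catalytic RNA of RNase P, had the lowest fold change of the members. Its input level ranged from 32951 CPM in Hep3B to 9085 CPM in HCT116, 6717 CPM in DU145, and 1568 CPM in SW1990. The RIP libraries held 240, 78.1, 92.3, and 85.7 CPM. Again every RIP value lay below every input value, with no count of how many genes tested do the same. Of the 4 RIP libraries, 3 lay within a narrow band with Hep3B above it. The input exceeded the RIP library 137-fold for Hep3B, 116-fold for HCT116, 72.8-fold for DU145, and 18.3-fold for SW1990. The fitted log2 fold change was -5.78 (SE 0.55, adjusted p = 2.1e-05 in edgeR), the 40th lowest of the genes tested.

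The table gives RPPH1 one locus with PARP2 (chromosome 14, 20811206 to 20826064), the gene of a poly(ADP-ribose) polymerase. PARP2 had between 825 and 2110 fragments in an input and between 344 and 1339 in a RIP library, fewer than RPPH1 in each library. The gap was smallest in the HCT116 RIP library, with 1339 fragments on PARP2 and 3326 on RPPH1. Its log2 fold change was -0.47 (SE 0.23, adjusted p = 0.116 in the same fit). Whether the counting used strand is not given in the sources used here, so that fragments of overlapping genes cannot be told apart.

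RMRP (ENSG00000269900; chromosome 9, 35657747 to 35658015) differed from both in the SW1990 pair. Its inputs spread most of the 3, from 15602 CPM in Hep3B through 2774 CPM in HCT116 and 735 CPM in DU145 down to 161 CPM in SW1990. The RIP libraries held 183, 182, 45.4, and 192 CPM. The highest input was 96.8-fold above the lowest, while the highest RIP library was 4.23-fold above the lowest. The SW1990 RIP level was thus close to those of Hep3B and HCT116, and the SW1990 input was the lowest of the 4 inputs. RMRP RIP levels in Hep3B and HCT116 cells did not differ beyond counting error, with 95% Wilson intervals of 179 to 188 and 178 to 186 CPM.

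RIP over input for RMRP was 0.0117 (Hep3B), 0.0618 (DU145), and 0.0656 (HCT116). In SW1990 cells it was 1.19 (95% exact interval 1.15 to 1.23), from 7406 RIP and 5976 input fragments. The interval covers counting error only, and fragments are not independent molecules. On the log2 scale the SW1990 ratio was 0.25, or 0.54 from FPKM + 1, 0.58 with TMM scaling, and 0.35 when centred on protein-coding genes, so its direction did not depend on the scale. In the SW1990 pair 65.6% of the genes tested had a lower ratio than RMRP, against at most 1.17% in each of the other lines. With 1 pair per line this difference between lines could not be tested.

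Across the lines RMRP had a log2 fold change of -3.36 (SE 0.96, adjusted p = 0.0138 in edgeR). Without the SW1990 pair it was -4.38 (SE 0.58, adjusted p = 0.000396 in the same fit), and without the Hep3B pair -2.46. Without the HCT116 pair it did not pass the threshold (log2 fold change -3.31, adjusted p = 0.0604 in the same fit), nor did it with limma on log2(FPKM + 1) (adjusted p = 0.0599) or in edgeR without the cell line as a block (adjusted p = 0.0617). The mean log2 ratio of the 4 pairs was -3.53 ± 2.77 (SD, n = 4 lines, lower in 3 of 4, p = 0.25 by exact permutation of signs, two-sided).

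**Figure D2:**
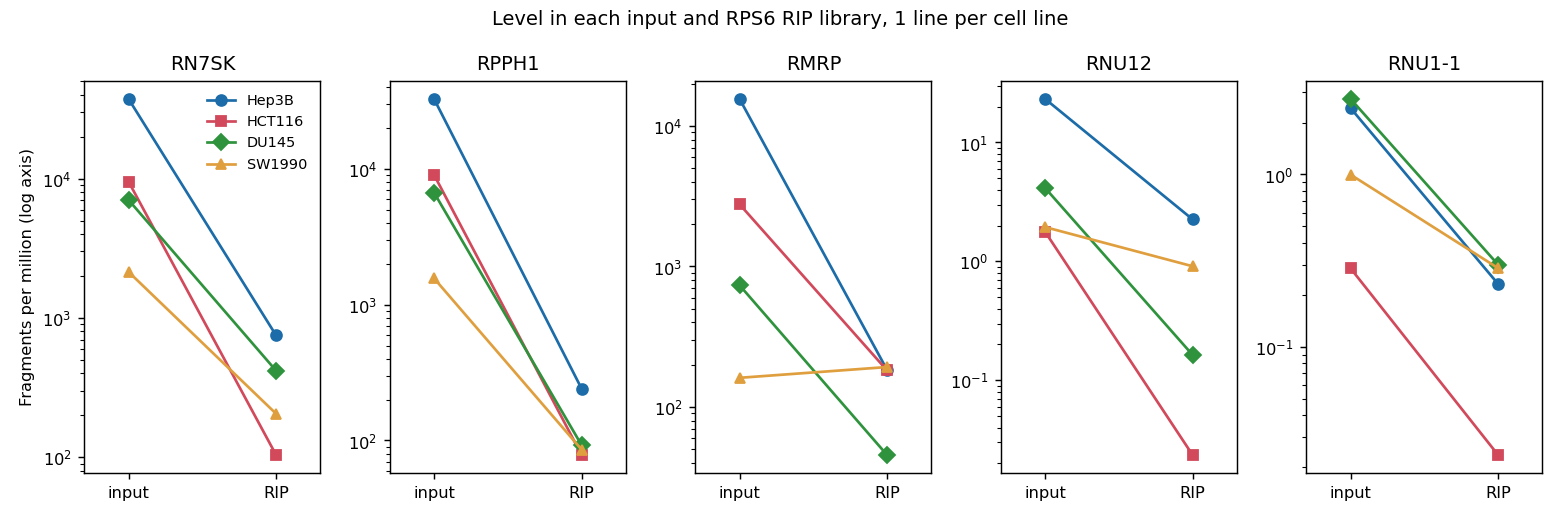
Level in CPM (log axis, each panel with its own range) of 5 RNAs in the input and the RIP library of each cell line, with 1 line joining the pair. All pairs fall from input to RIP except RMRP in SW1990 cells, which goes from 161 to 192 CPM.

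The 3 abundant RNAs shared an order of input levels, with Hep3B highest, then HCT116, DU145, and SW1990. In each RNA these neighbours differed beyond the counting intervals, but no line has a second input to show its own spread. The order was not special to these 3. In the same order of lines, RN7SL1, a signal recognition particle RNA, had 24269, 10702, 8967, and 745 CPM. RN7SL2, another such RNA, had 13894, 10352, 7463, and 581 CPM. The nuclear-retained long noncoding RNAs MALAT1, NEAT1, and KCNQ1OT1 had other orders. All these levels come from the same input libraries, so they are not separate observations of the order. In the RIP libraries the order was Hep3B, DU145, SW1990, and HCT116 for RN7SK and RPPH1, and SW1990, Hep3B, HCT116, and DU145 for RMRP. RPPH1 in the DU145 and SW1990 RIP libraries had 95% Wilson intervals of 89.2 to 95.5 and 82.8 to 88.6 CPM, a small gap. RIP levels spread less than input levels for each of the 3, with 7.22-fold against 17.4-fold for RN7SK and 3.08-fold against 21.0-fold for RPPH1.

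Because both ribonuclease RNAs bind a largely shared set of proteins, their levels were set side by side per length. RMRP over RPPH1 in FPKM was 1.13 in the Hep3B input, then 0.672 for HCT116, 0.243 for DU145, and 0.226 for SW1990. In the RIP libraries it was 2.02, 5.84, 1.07, and 5.12. In each of the 4 lines the RIP library had the higher ratio, so RMRP was reduced less than RPPH1 also where both were reduced. RN7SK over RPPH1 was between 1.14 and 1.44 in the inputs and between 1.59 and 4.91 in the RIP libraries. FPKM of such short genes depend on the effective length that the authors' software assigned, which by its counts and FPKM in the inputs was 152 bases for RN7SK, 167 for RPPH1, and 74 for RMRP.

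The mean log2 ratio was -4.90 ± 1.43 for RN7SK and -6.09 ± 1.32 for RPPH1 (SD, n = 4, lower in 4 of 4). An exact permutation of the signs, two-sided, gave p = 0.125 for each, the smallest that 4 pairs allow. All 5 tested members had their highest ratio in the SW1990 pair. For RNU1-1 the SW1990 counting interval overlapped those of the other lines. They come from the same 2 libraries, so this is not 5 separate observations. The median log2 ratio of all genes tested was -0.28 in SW1990 and between -0.45 and -0.24 in the other lines.

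**Figure D3:**
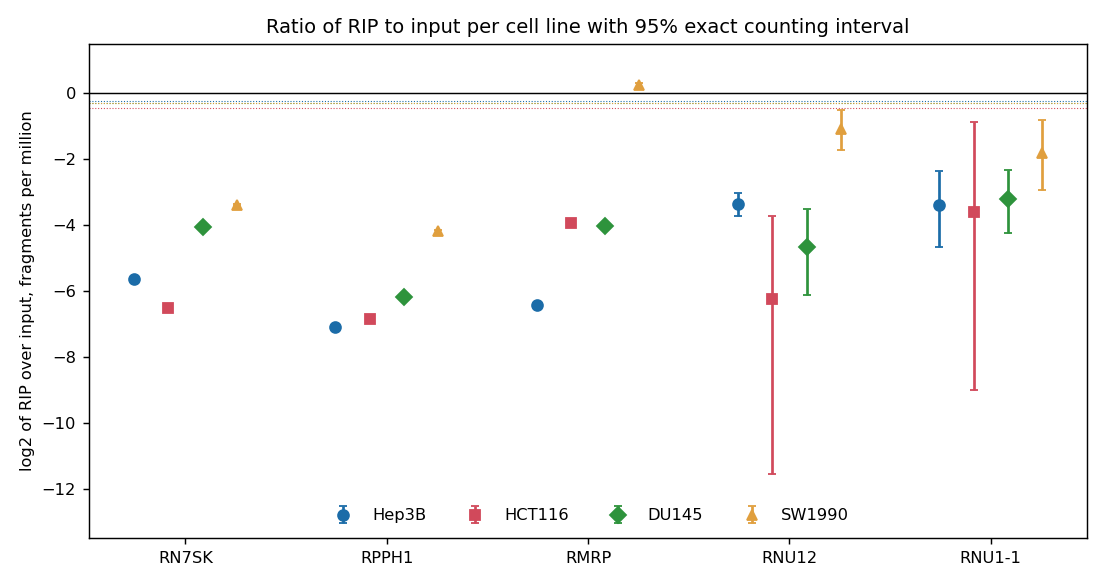
log2 of RIP over input in CPM for the 5 tested RNAs in each cell line, with 95% exact intervals for counting error, which are smaller than the points for the abundant RNAs. Dotted lines mark each line's median over all genes tested (between -0.45 and -0.24), and RMRP in SW1990 cells is the only point above 0.

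RNU12 (ENSG00000270022; chromosome 22, 43011249 to 43011913), the U12 snRNA that pairs with the branch site of minor introns, was the best covered snRNA entry. The entry spans 664 bases. In the HCT116 input 1.78 CPM on it gave 4.33 FPKM, while 1.94 CPM gave 18.3 FPKM in the SW1990 input. The length implied thus differed between lines. Which part of the entry the fragments covered is not given, so they need not all come from the snRNA. RNU12 had 833 fragments in the Hep3B input and 78 in the RIP library. The HCT116 pair had 81 and 1, the DU145 pair 225 and 6, and the SW1990 pair 72 and 35. All 4 pairs were lower in RIP, while the groups overlapped, since the Hep3B RIP level of 2.25 CPM exceeded the HCT116 and SW1990 input levels of 1.78 and 1.94. The input exceeded RIP 10.3-fold for Hep3B, 25.4-fold for DU145, and 2.14-fold for SW1990. In HCT116 cells RIP over input was 0.0132 with a 95% exact interval of 0.000330 to 0.0757, from 1 RIP fragment. The log2 fold change was -3.10 (SE 0.67, adjusted p = 0.00295 in edgeR), or -3.93 without the SW1990 pair.

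RNU1-1 (ENSG00000206652; chromosome 1, 16840616 to 16840780) encodes U1, which pairs with the 5′ splice site. It had 87 input and 8 RIP fragments in the Hep3B pair. The HCT116 pair had 13 and 1, the DU145 pair 149 and 11, and the SW1990 pair 37 and 11. RIP was lower in all 4 pairs. In the HCT116 pair RIP over input was 0.0823 (95% exact interval 0.00194 to 0.548). The HCT116 input, at 0.285 CPM, lay below the DU145 RIP level of 0.299, so the groups overlapped. The log2 fold change was -2.58 (SE 0.66, adjusted p = 0.00770 in edgeR). Without the block for cell line, neither RNU12 (adjusted p = 0.217) nor RNU1-1 (adjusted p = 0.121) passed edgeR's threshold. With values under 3 fragments set to 3, the mean log2 ratio was -3.45 ± 1.68 for RNU12 and -2.60 ± 0.81 for RNU1-1 (SD, n = 4, p = 0.125 for each by exact permutation of signs).

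The other 5 snRNAs were barely covered. RNU11 (chromosome 1, 28975111 to 28975245), the U11 snRNA, which recognizes the 5′ splice site of minor introns, had 48 fragments in the SW1990 input against 9, 2, and 1 in those of Hep3B, HCT116, and DU145. Its RIP libraries held 1 fragment, in SW1990 cells, where RIP over input was 0.0201 (95% exact interval 0.000498 to 0.117). In the Hep3B pair, with no RIP fragment, the exact 95% interval of the ratio reached up to 0.524. It was tested only in the fit without a minimum on counts and passed edgeR's threshold there (log2 fold change -5.20, adjusted p = 0.0173), a value that depends on the prior count.

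RNU4-1 (chromosome 12, 120730899 to 120731040), a U4 gene, whose RNA escorts U6 into the spliceosome, had 8, 1, 13, and 7 input fragments in Hep3B, HCT116, DU145, and SW1990 cells. Only the DU145 RIP library held any, with 3. The exact 95% interval of RIP over input reached up to 0.606 in the Hep3B pair and 0.668 in the SW1990 pair. In DU145 cells RIP over input was 0.340, with an interval of 0.0622 to 1.24 that includes no change. RNU5A-1, a U5 gene, whose RNA holds exon ends during splicing, had 3, 0, 2, and 5 input fragments and none in any RIP library, with 95% Wilson upper limits between 0.0902 and 0.111 CPM. In the SW1990 pair the exact 95% interval of RIP over input reached 1.05, so a difference was not detectable at this depth, and the other pairs were at or under the floor of 3 fragments.

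RNU6-1, a gene of the catalytic U6 snRNA, had 2, 1, 2, and 2 input fragments and 1, 0, 2, and 1 RIP fragments. RNU4ATAC, the minor counterpart of U4, had 0, 1, 0, and 1 input fragments and 2 RIP fragments, both in Hep3B cells. No ratio is given for either, since both libraries of every pair were at or under the floor and a difference was not detectable at this depth. RNU4ATAC is listed at the locus of CLASP1 (chromosome 2, 122095351 to 122407163), a gene that had a log2 fold change of 0.96 (SE 0.20, adjusted p = 0.00227 in edgeR), and RNU5A-1 at that of PARP16 (chromosome 15, 65526797 to 65592956). RNU6-1 shares its locus with SKOR1 (chromosome 15, 68112041 to 68166204).

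**Figure D4:**
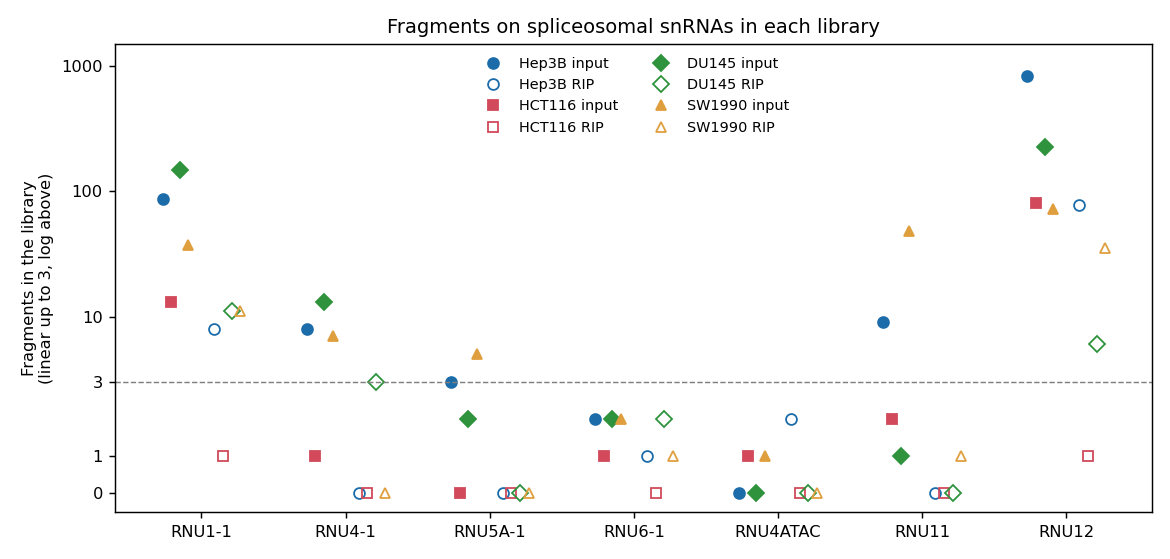
Fragments on each of the 7 snRNAs in each input (filled) and RIP library (open), on an axis that is linear up to 3 fragments and logarithmic above, with a dashed line at 3. RNU12 and RNU1-1 rise above 3 in all 4 inputs, while RNU6-1 and RNU4ATAC lie below the line in all 8 libraries.

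Most of these RNAs have many copies and pseudogenes, between which the authors' counting could have divided fragments. Copies of 7SK number 298 entries, of which 160 were above 0. Their summed fragments came to between 3.32% and 10.4% of those on RN7SK in a library, with RN7SKP203 the most covered. Together they had 1342, 316, 664, and 223 CPM in the Hep3B, HCT116, DU145, and SW1990 inputs, and 34.7, 9.88, 38.1, and 19.5 in the RIP libraries. Of the 27 copies tested, 25 were lower in RIP and 0 were higher, beside 24.9% and 26.5% of all genes tested. Their median log2 fold change was -4.17. As for the members, the minimum on counts favours copies with many input fragments. The count is therefore no sign of how the other copies behave. Genes were also ranked by correlation with RN7SK over the 8 libraries, leaving out the members and the signal recognition particle and Y RNAs. The 3 that followed RN7SK most closely were copies of it (RN7SKP118, RN7SKP217, and RN7SKP180). Pearson r was between 0.988 and 0.995 on log2 CPM with TMM scaling. These points share libraries and, for copies, sequence.

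Copies of U1 number 143 entries, and their sum was lower in RIP in 4 of 4 lines, though by little in HCT116 cells (6.23 against 5.44 CPM). There 188 of the 232 RIP fragments fell on 1 entry named U1 (ENSG00000228549), which had a higher CPM in RIP than in input. Of the 11 U1 copies tested, 8 were lower and 1 was higher, beside 24.9% and 26.5% of all genes tested. Here too the minimum on counts favours copies with many input fragments, so this count is no sign of how the others behave. Copies of U6 number 1332 entries, and all of them together had between 18 and 63 fragments in an input and between 10 and 59 in a RIP library. The sum of the U6 copies was lower in RIP in 2 of 4 lines. For RMRP, with the same RNAs left out as for RN7SK, the genes most correlated with it were CD83, RP11-126K1.2, and AGPS. Pearson r was between 0.937 and 0.942 over the 8 libraries, which compares the pattern and not the height of levels.

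Other structured or nuclear RNAs were looked at beside them. RN7SL1 and RN7SL2, the signal recognition particle RNAs, which act on cytoplasmic ribosomes, were lower in RIP in all 4 lines, with log2 fold changes of -6.36 and -6.49 (SEs 0.62 and 0.65). Of 54 entries for small Cajal body RNAs, which guide modification of snRNAs, 9 passed the minimum on counts and were tested. The minimum favours entries with many input fragments, so their calls are no sign of how the others behave. Of the 9 tested, 6 were lower and 0 were higher, beside 24.9% and 26.5% of all genes tested. This count rested on single pairs and on the block: 3 of 8 were lower without the Hep3B pair, 4 of 9 without HCT116 or without DU145, 9 of 9 without SW1990, and 1 of 9 without the cell line as a block. RMRP was not alone in being higher in the SW1990 RIP library. In that pair 39.6% of all genes tested had a log2 ratio above 0, so a few such genes are no special trait. RN7SL1 went from 745 to 21.5 CPM there, but 5 of the 9 Cajal body RNAs were higher in RIP there and in no other line. Among these, SCARNA10 went from 8.47 to 14.7 CPM and SCARNA2 from 1.62 to 2.88 CPM, while SCARNA5, SCARNA9, and SCARNA12 lay at or below 1.13 CPM in both libraries. These genes were singled out after their values were seen. The nuclear-retained long noncoding RNAs MALAT1 and NEAT1 were lower as well, with log2 fold changes of -3.04 and -2.93, while KCNQ1OT1 had -0.09 (adjusted p = 0.814 in edgeR) and was higher in RIP in the SW1990 pair alone (22.8 to 31.4 CPM). RPPH1 lay below MALAT1 and NEAT1 on this scale, and RNU1-1 above them, though no difference between these genes was tested.

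The mRNAs of proteins that bind, assemble, or transcribe these RNAs did not move together. Over 7 lists with 90 tested entries, 25 were higher in RIP and 42 were lower, or 27.8% and 46.7%, beside 26.5% and 24.9% of all genes tested. Without the cell line as a block, 13 were higher and 19 were lower. Leaving out 1 pair at a time gave between 21 and 26 higher and between 38 and 47 lower. Calls of single partner mRNAs without each pair are not given, and some of them changed. Of the 8 mRNAs of the 7SK particle and P-TEFb, 3 were higher and 4 were lower, with a median log2 fold change of -0.40. MEPCE, which caps 7SK, had a log2 fold change of 1.35 and CDK9, the kinase of P-TEFb, 1.03. LARP7, which binds the 3′ end of 7SK, had -2.54, and HEXIM1, the inhibitor in the particle, -1.34 (adjusted p between 0.000144 and 0.0123 for the 4, in edgeR).

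Of the 12 entries for 11 protein subunits of RNase P and MRP, 6 were lower and 1 was higher, beside 24.9% and 26.5% of all genes tested. The lower ones included RPP14 with -1.55, RPP38 with -1.22, and POP5 with -1.07, and the higher one was RPP25 with 1.34. RPP14 has a second entry that did not pass the threshold (-1.41, adjusted p = 0.0794). POP1, the largest subunit, had 0.61 (adjusted p = 0.220 in edgeR).

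The spliceosomal lists are given in turn, and no difference between them was tested. Each count stands beside 24.9% lower and 26.5% higher among all genes tested. Of 13 mRNAs for the Sm and LSm rings, the small proteins that encircle snRNAs, 11 were lower and 1 was higher, with a median log2 fold change of -2.22. SNRPF had -3.76, LSM5 -3.27, and SNRPD1 -3.08, while SNRPB had 0.95 and was higher in 4 of 4 lines. LSM7, at -0.57, did not pass the threshold (adjusted p = 0.0544 in edgeR). Of 19 mRNAs for proteins of single major snRNPs, 9 were higher and 4 were lower, with a median of 0.55. The U5 proteins PRPF8, EFTUD2, and SNRNP200, which form the heart of the catalytic spliceosome, had 3.62, 2.83, and 2.46, and TXNL4A, also of U5, had -1.40. Of 8 mRNAs for minor snRNP proteins 5 were lower and 0 were higher, including ZRSR2 with -3.04, ZCRB1 with -2.90, and SNRNP48 with -2.39.

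Of 16 assembly mRNAs, 8 were lower and 4 were higher, beside 24.9% and 26.5% of all genes tested. The share of higher ones is thus near that of all genes. PHAX, the export adaptor of snRNAs, had -2.62, and SMN1 and SMN2, near-identical genes between which fragments could have been divided, had -1.88 and -1.91. GEMIN4 and GEMIN5, which belong to the same SMN complex, had 2.72 and 2.42, and the methyltransferase PRMT5 had 1.85. Of 14 mRNAs for snRNA transcription and 3′ end formation, 7 were higher and 4 were lower, the lower ones near the share among all genes. SNAPC1, a subunit of the factor that binds snRNA promoters, had -3.27 and SNAPC4, another subunit, 2.29. INTS1, the largest subunit of the Integrator complex, had 3.55, and SSB, the La protein that binds new polymerase III transcripts, had -2.84.

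**Figure D5:**
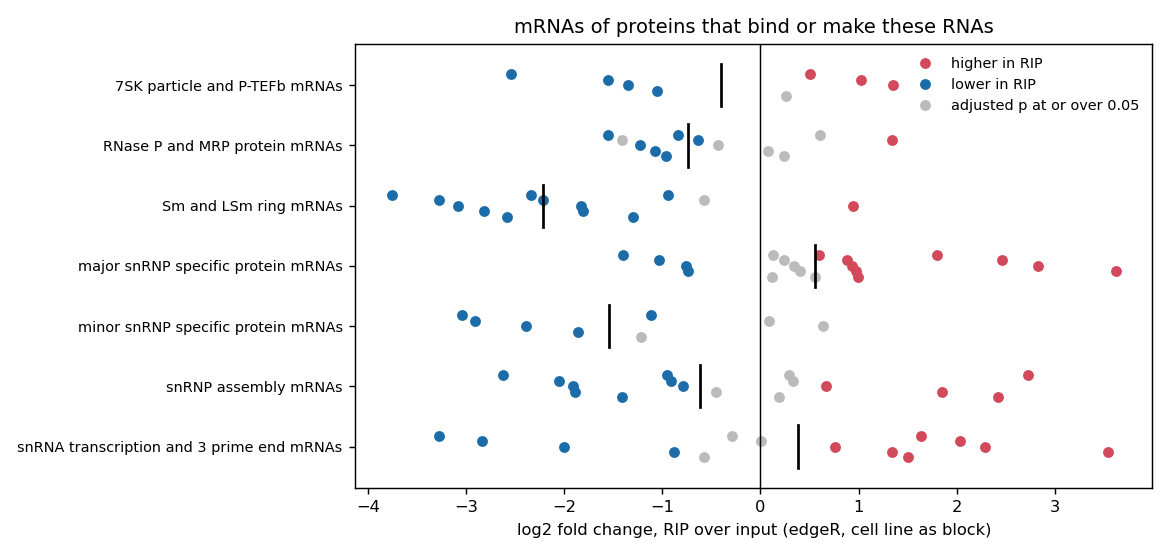
log2 fold change of RIP over input for 90 entries in 7 lists of mRNAs, 1 point each, red where higher and blue where lower in RIP at an adjusted p under 0.05, with each list's median as a black bar. The Sm and LSm list lies mostly below 0 (median -2.22), and the list of major snRNP proteins reaches 3.62 at PRPF8.

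Gene length moved with these values across all genes. By the effective length that counts and FPKM imply, the 301 genes tested under 200 bases had a median log2 fold change of -1.15, and 36.5% of them were lower in RIP. The 3282 genes of at least 4000 bases had a median of 0.55, and 15.8% of them were lower. The partner mRNAs called higher had a median effective length of 2070 bases and those called lower one of 1046. RN7SK, RPPH1, RMRP, and RNU1-1 fell in the shortest class and RNU12, with 313 bases, in the next, whose 1351 genes had a median of -0.70. All 5 lay below the median of their class, and the part of length in their fold changes was not tested.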

How the data were processed

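According to the study's methods, RIP-seq reads went through alignment to human genome version 19 with TopHat. The submitters' processing notes name TopHat2 2.0.9 and CASAVA 1.8. The counting tool, annotation release, and strand setting are not given in the sources used here. The authors deposited FPKM, normalized for length and depth, and estimated counts, which carry a scaling factor specific to each library. The deposited tables of the authors' own comparisons (fold changes, p-values, and q-values of 1 library against 1) were not used.

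To recover fragments, each library's estimated counts were divided by their most frequent value, which stands for 1 fragment (between 0.673 and 1.27). Within 0.01 fragments, between 78.3% and 91.9% of values above 0 were whole. Estimated counts, unlike the raw counts assumed at first, were rounded and tested with edgeR 4.0.16 (quasi-likelihood, TMM, cell line as a block, mean of at least 10 counts, Benjamini-Hochberg threshold 0.05) in R 4.3.3. Pairs share a cell line by design. In tests on simulated data the median size of known changes was recovered, and false calls exceeded the nominal share where dispersions varied by gene as estimated here. Ratios per line used CPM of recovered fragments with exact conditional 95% intervals and a floor of 3 fragments. Coordinates are printed as the deposited tables give them. Effective length is the gene length that an estimated count, the library's total, and FPKM imply, as the median over inputs.

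Alternatives used no block, DESeq2 1.42.0, other minima, log2(FPKM + 1) or log2(FPKM + 0.1) in limma 3.58.1, recovered fragments, and each pair left out. The members, gene lists, and tests were chosen with earlier results of these data known. All members are named, with genes of the fixed partner lists, genes at a member's locus, and the 3 genes most correlated with RN7SK and with RMRP. That ranking left out the members and the signal recognition particle and Y RNAs. Protein-coding genes were taken from RefSeq GRCh38.p14 by symbol (13563 tested). Counting intervals and floors cover counting error only. Remaining steps ran in Python 3.11.15 with SciPy 1.17.1, pandas 2.3.3, NumPy 2.4.6, and matplotlib 3.10.9.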

Additional observations from a re-analysis of the deposited data

Results flagged for a closer look

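RMRP had a log2 ratio of RIP to input of 0.25 in SW1990 cells and was lower in RIP in the other 3 lines, a difference between lines that was not tested. Among 19 groups of 4 values searched, 5 held a value far from the other 3, where chance gives about 1 in 20 groups of normally distributed values. The search covered levels in CPM without a log scale and, for the members with a ratio in every line, log2 ratios. Levels are skewed without a log scale, so the rate is a rough guide. All 5 flagged values were levels. These were RMRP at 15602 CPM in the Hep3B input, RMRP at 45.4 in the DU145 RIP library, RPPH1 at 240 in the Hep3B RIP library, RNU12 at 23.3 in the Hep3B input, and RNU4-1 at 0.0816, from 3 fragments, in the DU145 RIP library, a group whose other values are 0 and in which any count would stand apart.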

How the results depend on the processing

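All log2 fold changes of the 5 tested members stayed below 0 in every fit. Without the replicate block for cell line 2 members were called lower rather than 5, and RMRP (log2 fold change -4.74), RNU12 (-2.97), and RNU1-1 (-2.63) did not pass the threshold. That fit called 13 partner mRNAs higher and 19 lower, and 1 of 9 small Cajal body RNAs lower rather than 6. RMRP also did not pass it with limma on log2(FPKM + 1), at -3.19. Leaving out 1 pair at a time gave between -4.38 and -2.46 for RMRP, which did not pass the threshold without the HCT116 pair (-3.31), and 4 or 5 members called lower. No other call of a tested member changed, though RNU1-1 was not tested with a minimum of 50 counts. The call on RNU11 depended on the minimum count. With TMM scaling 4 of 5 members were lower in SW1990 cells, against 7 of 8 in CPM, since only the 5 tested members have TMM values. Other ratios kept their direction. Few fragments limit RNU4-1, RNU5A-1, RNU6-1, RNU4ATAC, and RNU11.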
